A study of Macaca mulatta with 7 samples.

Results

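The genes described here code for 10 neuropeptide precursors, followed through neuron nuclei of rhesus macaque spinal cord: PDYN, PENK, TAC1, TAC3, NMU, NTS, TRH, SST, NPY and NPVF. They were taken by symbol from the gene list of the count matrices, which holds 28966 gene symbols, and all 10 were found, each with 1 identifier. The data are single-nucleus RNA-seq of 7 libraries from adult female animals, 1 library per group, so no difference between groups has a replicate and no p-value is given. Of these, 3 libraries came from the untreated cervical, thoracic and lumbar cord of a 5-year-old animal, which the study describes as 1 uninjured cord. The other 4 came from spared lumbar cord below a complete T9 transection in which a block of thoracic cord was removed, from animals aged 7 years at 7 and 14 days post-injury (dpi) and 6 years at 30 dpi and at 6 months post-injury (mpi). Animal, time and library preparation coincide in these 4 libraries, and age in part, so they cannot be told apart. Between the intact and the injured libraries, injury, animal and age differ together and cannot be told apart either. The range of the 3 intact libraries spans segments of 1 cord and holds no spread between animals.

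Neuropeptides are made as precursors, cut by convertases in the secretory pathway, packed into dense core vesicles and released beside fast transmitters such as glutamate or GABA. In the spinal cord many of them mark small sets of interneurons of the dorsal horn, the part that receives touch, itch and pain input. They act through G protein-coupled receptors on nearby neurons, and the opioid peptides are known for damping pain signals while the tachykinins are known for enhancing them.

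The tachykinin precursors hold a short core, which defines the family and binds its receptors. The stretches below show that core in the macaque genes (RefSeq transcripts, build Mmul_10, positions on that build), all within 1 coding exon each, written 5′ to 3′ on the gene's own strand. Capitals mark the last 5 codons of the peptide, which code for phenylalanine, a variable residue, glycine, leucine and methionine.
TAC1, substance P, chr3:108400797-108400826, minus strand: cccaagcctcagcagTTCTTTGGATTAATG
TAC1, neurokinin A, chr3:108398247-108398276, minus strand: cataaaacagattccTTTGTTGGACTAATG
TAC3, neurokinin B, chr11:56576113-56576142, minus strand: gacatgcatgacttcTTCGTGGGACTGATG
The tachykinin core occurred 2 times in TAC1 and 1 time in TAC3, so the gene counts reported here do not separate substance P from neurokinin A.

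Neuron-like nuclei numbered 9825 of 63730 nuclei kept. The 3 intact segments gave 1190, 803 and 2771 of them (cervical, thoracic, lumbar), and the injured libraries 1194, 1725, 1282 and 860 (7, 14, 30 dpi, 6 mpi). Their clusters were named from SNAP25, SYT1, RBFOX3, STMN2 and SCN2A, and the 10 peptide genes and the transmitter genes were left out of the genes used for clustering. Neuron-like unique molecular identifiers (UMIs), each standing for 1 captured RNA molecule, summed to between 23571227 at 6 mpi and 90849049 in intact lumbar cord. HOXD10, a gene of lumbar segments, was at 0 in the cervical and thoracic libraries, at 2.08 CPM in the intact lumbar library and between 0.788 and 1.05 CPM in the injured ones, and HOXC10 (2.89 against 1.33 to 2.34 CPM) and HOXA10 (1.02 against 0.353 to 0.689 CPM) were also lower in the injured libraries; the part of the sampled lumbar level in the results was not tested. Library pairs shared between 9 and 29 barcodes. Levels below are pooled UMIs of a gene per 1000000 UMIs (CPM) of the neuron-like nuclei, and their intervals cover counting error only. Fewer nuclei with a peptide and less of its RNA per nucleus cannot be told apart in a pooled level, so shares of nuclei follow beside it. Series of values are given in 1 order throughout, cervical, thoracic and lumbar for intact cord, then 7, 14 and 30 dpi and 6 mpi for injured lumbar cord.

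No peptide gene differed from intact lumbar cord by 2-fold or more in pooled level. The widest spans between any 2 libraries, highest over lowest, were 2.96 for TAC3, 2.53 for PENK and 2.53 for NPY. A gene was called when log2 of (CPM + 1) differed from intact lumbar cord by at least 1 and, for injured libraries, when it also lay outside the range of the 3 intact libraries; 7 of the 10 genes reached the mean of 5 CPM needed for this, and NTS, TRH and NPVF did not. At 7 dpi 0 of 7 were higher and 0 of 7 lower, beside 0.969% and 0.534% of all 11246 genes tested. The same counts of 0 stood beside 0.649% higher and 0.64% lower at 14 dpi, 0.631% and 0.622% at 30 dpi, and 1.6% and 0.685% at 6 mpi. Among intact segments 0 of 7 were called, beside 0.213% higher and 0.116% lower genes in cervical and 0.356% and 0.196% in thoracic cord. Lying outside the range of the 3 intact libraries was common: 76.3%, 67.9%, 69.5% and 73.7% of all tested genes did so at 7, 14 and 30 dpi and 6 mpi, against 3, 4, 4 and 5 of the 7 peptide genes. All 4 injured libraries were above all 3 intact ones for 2 of the 7 peptide genes, PENK and TAC3, beside 8.6% of all genes tested, and below them for 0 of 7, beside 11.8%. The differences below are therefore sizes between single libraries.

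**Figure D1:**
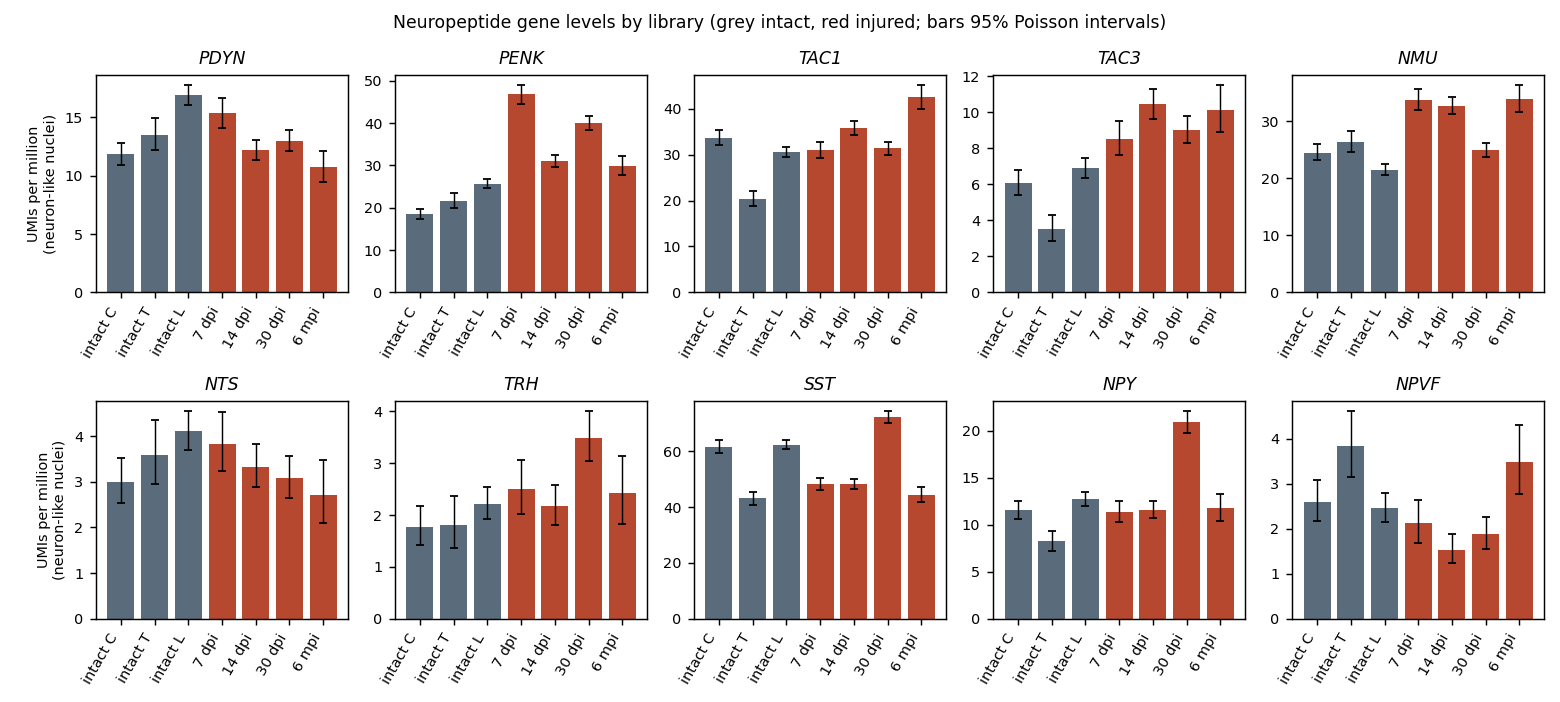
CPM in neuron-like nuclei (y axis, from 0, own scale per panel) for each of the 10 genes in the 7 libraries (x axis; C, T and L are cervical, thoracic and lumbar), with 95% Poisson intervals. PENK and TAC3 stand above the 3 intact libraries (grey) in all 4 injured libraries (red), and NPY stands apart at 30 dpi with 20.9.

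PENK, the enkephalin precursor, was higher in every injured lumbar library than in any intact one. The intact segments gave 18.4, 21.6 and 25.6 CPM. The injured libraries gave 46.7, 31.0, 39.9 and 29.9 CPM. The groups did not overlap, and among neighbours when the libraries are ranked by level only 14 dpi and 6 mpi had a ratio interval that included 1. The log2 ratio of CPM to intact lumbar cord over the 4 times was 0.87 (95% counting interval 0.78 to 0.96), 0.28 (0.19 to 0.36), 0.64 (0.56 to 0.72) and 0.22 (0.10 to 0.34). Without the 1% of nuclei with most PENK UMIs, which included 1 nucleus with 88 at 7 dpi, the levels were 14.9, 15.9 and 19.2 CPM in intact and 33.2, 23.4, 31.4 and 24.7 CPM in injured cord, again with no overlap.

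PENK RNA lay mainly in 3 groups of neuron-like nuclei. A cluster of 782 nuclei led by GBX1, MET and LIX1 (cluster 16) held 28.5% of it, a broad cluster of 4214 nuclei led by HTR2C and NDST4 (cluster 4) held 42.4%, and a cluster led by NMBR and MYO5B (cluster 22) held 13.4%. Within cluster 16 PENK was at 59.6, 102 and 90.4 CPM in intact cord and at 132, 156, 181 and 126 CPM after injury. Within cluster 4 it was at 15.7, 18.4 and 20.2 CPM in intact cord and at 33.5, 21.9, 29.6 and 24.98 CPM after injury. In both clusters every injured library was above every intact one, although the order among injured times differed between the clusters. PENK levels within cluster 22 are not reported here. With clusters weighted as in intact lumbar cord, the log2 ratio of CPM + 1 at 7 dpi was 1.00, just under the call. Here and below this weighting used 10 of the 13 neuron-like clusters, which held 97.1% of the neuron-like nuclei of intact lumbar cord. Clusters with under 20 nuclei in a library were left out, among them cluster 29, described below for NPY. The level of intact lumbar cord itself changed too, so weighted and pooled ratios differ in more than cluster shares.

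The share of neuron-like nuclei with PENK was also higher after injury. It was measured after thinning each nucleus to 5000 UMIs and asking for 2 or more UMIs of the gene, so that depth did not set it; between 10 and 167 neuron-like nuclei per library were shallower and left out. The share was 2.44%, 2.18% and 2.92% (95% Clopper-Pearson interval 2.32 to 3.63%) in intact cord, and 3.73%, 3.68%, 4.56% (3.48 to 5.85%) and 3.55% after injury. All 4 injured shares were above the intact ones, but the intervals of intact lumbar cord and 30 dpi overlapped. Oligodendrocyte-like nuclei thinned alike, which should lack the peptide, gave shares from 0 to 0.135%. Mean UMIs per PENK-positive nucleus were 3.03 in intact lumbar cord and 3.95, 2.63, 2.90 and 2.53 at the 4 injured times.

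PENK RNA outside neurons was higher after injury too, as was that of other peptide genes. In oligodendrocyte-like nuclei it was at 1.07, 0.510 and 1.62 CPM in intact cord and at 4.85, 3.50, 2.62 and 4.35 CPM after injury. These levels were 2.36 to 14.6% of the neuron level in the same library, and their part in the neuron levels was not tested. In all, 5 of the 10 genes (PDYN, PENK, TAC1, TAC3 and SST) were higher in oligodendrocyte-like nuclei of every injured library than of any intact one. The share of all genes that did so in oligodendrocyte-like nuclei is not given here, so the count is not read as a trait of peptide genes. SST, for example, was at 1.44, 0.718 and 2.81 CPM there in intact cord and at 5.85, 7.77, 3.81 and 2.98 CPM after injury, whereas its neuron level was lower at 3 of these times than in the lumbar segment of the intact animal. In nuclei like oligodendrocyte precursors (OPC) PENK was at 0.902, 0.433 and 1.65 CPM in intact cord, from 5 to 8 UMIs, and at 11.5, 3.38, 4.58 and 9.83 CPM after injury, from 6 to 27 UMIs, which was 10.9 to 32.9% of the neuron level in the injured libraries. In the 62 astrocyte-like nuclei of 7 dpi it was at 31.5 CPM from 15 UMIs, against 2.05 CPM in intact lumbar cord. Astrocyte-like levels of the other libraries, with 91 such nuclei at 14 dpi and 100 at 30 dpi, are not reported here.

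PDYN, the precursor of the dynorphins, was lower at 14 and 30 dpi and 6 mpi than in intact lumbar cord, but mostly within the range of the intact segments. It was at 11.8, 13.5 and 16.9 CPM over the intact segments. After injury it read 15.4, 12.2, 12.97 and 10.7 CPM. The groups overlapped: 3 injured libraries lay within the intact range, and 6 mpi lay below cervical cord by less than the counting interval. Against intact lumbar cord the log2 ratio reached -0.66 at 6 mpi (-0.85 to -0.46), and no pair of neighbours in the order of the 7 levels had an interval that excluded a ratio of 1.

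PDYN RNA lay mainly in 1 small cluster and the broad cluster 4. A cluster of 709 nuclei, 7.22% of neuron-like nuclei (cluster 18), held 60.9% of its UMIs, cluster 4 held 30.0% and a cluster of 263 nuclei (cluster 28) held 6.07%. Within cluster 18 PDYN was at 170, 141 and 175 CPM in intact cord and at 144, 133, 134 and 103 CPM after injury. The share of PDYN-positive nuclei was 1.47%, 1.74% and 2.66% in intact cord and 1.86%, 1.96%, 1.81% and 1.18% after injury. In 7 dpi cord 40.9% of 22 PDYN-positive nuclei also held PENK (20.7 to 63.6%), against 9.72% of 72 in intact lumbar cord (3.999 to 19.0%), 9.09% at 14 dpi and 0% of 23 at 30 dpi, which allows up to 14.8%.

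TAC1, which codes for substance P and neurokinin A, was lowest in thoracic and highest in 6 mpi cord. The intact segments gave 33.6, 20.4 and 30.5 CPM. The injured libraries gave 31.0, 35.9, 31.4 and 42.5 CPM. The libraries of 7 and 30 dpi could not be told from intact lumbar cord beyond counting error. The log2 ratio to intact lumbar cord was 0.48 at 6 mpi (0.37 to 0.58), and on the log2 scale of CPM + 1 it went from 0.46 to 0.22 when clusters were weighted as in intact lumbar cord. The share of positive nuclei was 3.62%, 2.91% and 3.66% in intact cord and 3.90%, 4.39%, 4.01% and 6.28% (4.74 to 8.13%) after injury.

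TAC1 RNA was split between cluster 4, with 48.0% of it, and cluster 22, with 39.9%. In cluster 22 it was at 306, 176 and 209 CPM in intact cord and at 253, 315, 277 and 415 CPM after injury. In cluster 4 it was at 32.2, 19.4 and 31.8 CPM (30.3 to 33.4 in lumbar cord) in intact cord and at 29.0 (26.9 to 31.3), 22.8 (21.2 to 24.6), 27.8 (26.1 to 29.6) and 24.5 CPM (21.8 to 27.4) after injury, so all 4 injured libraries lay within the intact range there. TAC1 also shared nuclei with PENK: 24.1% of 79 PENK-positive nuclei of intact lumbar cord held TAC1 (15.1 to 35.0%), against 3.05% of the others. The interval lay above that of the other nuclei in 5 of 6 libraries with 20 or more PENK-positive nuclei, the exception being 7 dpi with 9.09% (2.53 to 21.7%) against 3.69%.

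TAC3, the neurokinin B precursor, was above the intact range in all 4 injured libraries. It was at 6.09, 3.53 and 6.88 CPM over the intact segments. After injury it read 8.53, 10.4, 9.01 and 10.1 CPM. Ranked by level, no neighbours among the 4 injured libraries differed beyond counting error, and each was above intact lumbar cord, by a log2 ratio of 0.31 (0.11 to 0.51), 0.60 (0.44 to 0.76), 0.39 (0.22 to 0.56) and 0.56 (0.34 to 0.78) in that order. Thoracic cord was below the other 6 libraries, with a log2 ratio of CPM + 1 of -0.80 to lumbar cord. The share of TAC3-positive nuclei was 1.08%, 0.581% and 1.29% (0.903 to 1.80%) in intact cord and 1.95%, 2.90%, 1.57% and 1.54% after injury. Intervals at 7 dpi (1.24 to 2.91%), 30 dpi (0.963 to 2.42%) and 6 mpi (0.823 to 2.62%) overlapped that of intact lumbar cord. The interval at 14 dpi (2.16 to 3.82%) lay above it.

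The cluster richest in TAC3 held more of the nuclei than in any intact segment at 7 and 14 dpi and 6 mpi, and the level inside it had an interval above those of all intact segments at 30 dpi only. Cluster 21, 595 nuclei in which TAC3 and NMU led although neither was used to form it, held 75.0% of TAC3 UMIs. It made up 4.96%, 6.35% and 4.47% of neuron-like nuclei in intact cord and 6.53%, 8.64%, 5.30% and 7.67% after injury. These shares are compared by value without intervals, and 7 dpi (78 nuclei) was close to thoracic cord (51 nuclei). Within it TAC3 was at 145, 40.6 and 163 CPM in intact cord and at 159, 168, 230 and 190 CPM after injury. With clusters weighted as in intact lumbar cord the log2 ratio of CPM + 1 at 14 dpi was 0.00 in place of 0.54, at 7 dpi 0.03 and at 6 mpi 0.12. At 30 dpi weighting changed little, from 0.35 to 0.31, and in thoracic cord it was -1.27, past the call.

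NMU, which codes for neuromedin U, was above the intact range at 7 and 14 dpi and 6 mpi. It was at 24.5, 26.4 and 21.5 CPM over the intact segments. After injury it read 33.8, 32.7, 24.9 and 33.9 CPM. The libraries of 7 dpi, 14 dpi and 6 mpi could not be told apart beyond counting error and were above the other 4, and 30 dpi lay inside the intact range. Without the 1% of nuclei with most NMU UMIs, the levels were 16.9, 17.3 and 15.6 CPM in intact cord. They were then 26.2, 25.6, 18.3 and 25.9 CPM after injury, so 30 dpi also lay above the intact range. The log2 ratio to intact lumbar cord was 0.65 at 7 dpi (0.55 to 0.75). On the scale of CPM + 1 the ratios were 0.63, 0.58, 0.20 and 0.63 over the 4 times. With clusters weighted as in intact lumbar cord they were 0.33, 0.14, 0.06 and 0.31. So weighted, intact lumbar cord itself was at 27.5 CPM against 21.5 pooled. The share of positive nuclei was 2.35%, 4.22% and 2.55% in intact cord and 4.23%, 4.92%, 2.91% and 4.27% after injury.

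Cluster 21 held 53.9% of NMU UMIs and cluster 4 held 38.9%. In cluster 21 NMU was at 394, 421 and 368 CPM in intact cord and at 452, 399, 367 and 373 CPM after injury, so only 7 dpi was above the intact values. TAC3 and NMU shared nuclei: NMU was found in 22.9% of 35 TAC3-positive nuclei of intact lumbar cord (10.4 to 40.1%) against 2.29% of the others, in 47.8% of 23 at 7 dpi and in 40.8% of 49 at 14 dpi. At 30 dpi it was found in 10.0% of 20 (1.23 to 31.7%), which overlapped the share of the others. NMU-positive nuclei also held SST in 10.3 to 40.5% of cases over the 7 libraries, and the interval lay above that of the other nuclei in 4 of 7.

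**Figure D2:**
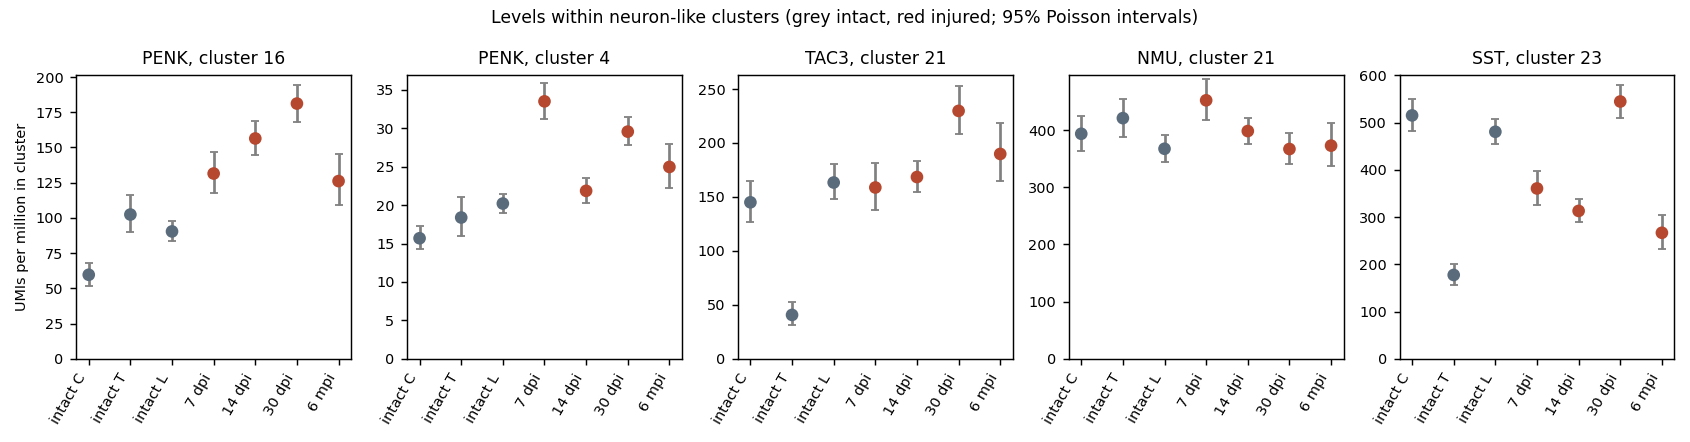
CPM (y axis, from 0) of PENK, TAC3, NMU and SST within 4 neuron-like clusters in each library (x axis; grey intact, red injured) with 95% Poisson intervals. PENK in cluster 16 is at 59.6 to 102 in intact and 126 to 181 in injured libraries, while TAC3 in cluster 21 at 7 and 14 dpi is close to intact lumbar cord and SST in cluster 23 is at 177 in thoracic cord.

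SST, the somatostatin precursor, known in the cord for marking excitatory dorsal horn neurons, was lower in 3 of 4 injured libraries than in intact lumbar cord. It was at 61.7, 43.1 and 62.4 CPM over the intact segments. After injury it read 48.2, 48.3, 72.2 and 44.5 CPM. Intact cord thus spanned the values of 7 dpi, 14 dpi and 6 mpi, and 30 dpi was above all other libraries. The log2 ratio to intact lumbar cord over the 4 times was -0.37 (-0.45 to -0.30), -0.37 (-0.44 to -0.30), 0.21 (0.15 to 0.27) and -0.49 (-0.59 to -0.39). As a mean over nuclei the ratio of CPM + 1 at 30 dpi turned from 0.21 to -0.03.

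The share of SST-positive nuclei was also lowest in thoracic cord and highest at 30 dpi, with 11.5%, 6.25% and 11.2% in intact cord and 8.81%, 8.65%, 12.97% and 7.70% after injury. In oligodendrocyte-like nuclei it was at most 0.288%. SST was spread over several clusters: cluster 23, led by NMUR2 and C1QTNF7, held 22.8% of its UMIs, cluster 19 held 19.0% and cluster 21 held 14.4%. In cluster 23 it was at 515, 177 and 481 CPM in intact cord and at 361, 313, 545 and 267 CPM after injury, so the low thoracic value was also present within that cluster. With clusters weighted as in intact lumbar cord, the log2 ratio of CPM + 1 in thoracic cord was -1.05, past the call. As a mean over nuclei without cluster weights it was -1.06.

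NPY, the neuropeptide Y precursor, stood apart at 30 dpi. It was at 11.5, 8.25 and 12.8 CPM over the intact segments. After injury it read 11.4, 11.6, 20.9 and 11.8 CPM. Between thoracic cord and 30 dpi at the ends, the other 5 libraries lay between 11.4 and 12.8 CPM, and no neighbours among them differed beyond counting error. The log2 ratio of 30 dpi to intact lumbar cord was 0.71 (0.59 to 0.83), and on the scale of CPM + 1 it was 0.67. With clusters weighted as in intact lumbar cord it was 0.72. That weighting left out cluster 29, the cluster richest in NPY, and put intact lumbar cord at 8.54 CPM. The share of positive nuclei was 1.76%, 0.727% and 1.74% in intact cord and 1.61%, 1.13%, 2.52% and 1.30% after injury. The intervals of 30 dpi (1.73 to 3.53%) and intact lumbar cord (1.28 to 2.30%) overlapped.

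NPY was held by few neurons. Cluster 29, 206 nuclei led by DNAH8, ADAMTS20 and CASR, held 38.3% of its UMIs, and cluster 16 held 31.2%. In cluster 29 NPY was at 317, 149 and 340 CPM in intact cord, 242 CPM at 14 dpi and 422 CPM at 30 dpi; the other injured libraries had under 20 nuclei there. Thoracic cord was lowest within both clusters, with 18.6 CPM in cluster 16 against 67.7 in cervical and 64.0 in lumbar cord.

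NTS, TRH and NPVF were scarce, with means over the 7 libraries of 3.38, 2.34 and 2.56 CPM. NTS, the neurotensin precursor, was at 3.003, 3.60 and 4.11 CPM in intact cord and at 3.83, 3.33, 3.08 and 2.72 CPM after injury, and no neighbours ranked by level differed beyond counting error. Against intact lumbar cord, the highest, the last 3 injured times had log2 ratios of -0.30, -0.42 and -0.60 for NTS, with intervals that ended at -0.05, -0.16 and -0.21, and cervical cord was also lower, at -0.45 (-0.73 to -0.17). Cluster 19, led by SLCO5A1 and NPSR1, held 50.8% of NTS UMIs. TRH, the precursor of thyrotropin-releasing hormone, was at 1.77, 1.81 and 2.21 CPM in intact cord and at 2.50, 2.17, 3.50 and 2.42 CPM after injury. Only 30 dpi stood apart for TRH, with a log2 ratio to intact lumbar cord of 0.66 (0.37 to 0.95). NPVF, the precursor of RFamide-related peptides, was at 2.61, 3.83 and 2.45 CPM in intact cord and at 2.12, 1.54, 1.88 and 3.48 CPM after injury. It lay below the intact range at 7, 14 and 30 dpi, and at 7 dpi this was within counting error. Each of the 3 genes was found in under 1% of neuron-like nuclei of every library at the fixed depth, and TRH was at 0 of 688 in thoracic cord, which allows a share of up to 0.535%.

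Which fast transmitter the peptide nuclei use was read from SLC17A6, the vesicular glutamate transporter of most spinal excitatory neurons, and from GAD1 and GAD2, the enzymes that make GABA. At 5000 UMIs 44.7% of all neuron-like nuclei showed none of the 3 genes, so the split was also made at 10000 UMIs, where 26.4% showed none. At that depth 28.9% of all neuron-like nuclei held SLC17A6 only, 42.5% GAD only and 2.19% both, summed over the 7 libraries. Nuclei of a library are not replicates, and counts per library are given where they bear on the direction.

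NPY lay mostly in GAD nuclei: of 267 positive nuclei 88.8% held GAD only (84.3 to 92.3%) and 1.498% SLC17A6 only. PDYN-positive nuclei held GAD only in 59.9% of 297 (54.1 to 65.6%) and SLC17A6 only in 24.9%. PENK-positive nuclei held GAD only in 48.0% of 583 (43.9 to 52.2%) and SLC17A6 only in 30.7%, which is near the split of all neuron-like nuclei. At 5000 UMIs PDYN had more GAD-only than SLC17A6-only nuclei in 4 of 4 libraries with 20 or more positive nuclei, and PENK in 5 of 6, the exception being intact cervical cord.

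The tachykinins and NMU leaned to SLC17A6. TAC1-positive nuclei held SLC17A6 only in 60.2% of 648 (56.3 to 64.0%) and GAD only in 9.57%. TAC3-positive nuclei held SLC17A6 only in 53.2% of 248 (46.8 to 59.6%) and GAD only in 9.27%. NMU-positive nuclei held SLC17A6 only in 40.5% of 472 (36.0 to 45.0%) and GAD only in 18.0%. At 5000 UMIs SLC17A6-only nuclei outnumbered GAD-only nuclei in 7 of 7 libraries for TAC1 and NMU and in 4 of 4 for TAC3.

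SST-positive nuclei held SLC17A6 only in 40.2% of 1240 (37.5 to 43.0%) and GAD only in 19.4%, and at 5000 UMIs the former outnumbered the latter in 6 of 7 libraries and equalled them in thoracic cord. NTS and NPVF leaned to SLC17A6 as well, with 59.4% of 106 (49.5 to 68.9%) and 50.8% of 63 (37.9 to 63.6%), and GAD only was found in 9.43% and 0% of them. TRH-positive nuclei held SLC17A6 only in 45.9% of 61 (33.1 to 59.2%). GAD2 itself read 93.7, 118 and 115 CPM in intact cord and 72.4, 66.7, 80.2 and 53.8 CPM after injury, below the intact range at all 4 times, and it was called lower at 6 mpi (log2 ratio of CPM + 1 of -1.08). GAD1 read 63.3, 84.1 and 78.3 CPM in intact cord and 76.1, 69.5, 59.8 and 55.3 CPM after injury, below the intact range at 30 dpi and 6 mpi and not called. The part of both in the GAD shares of injured libraries was not tested.

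**Figure D3:**
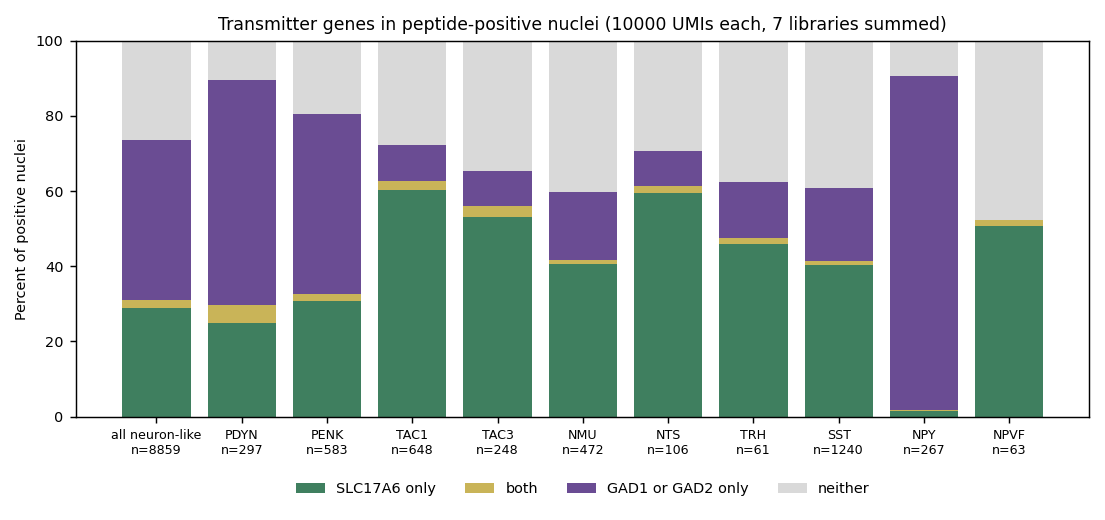
Percent of peptide-positive neuron-like nuclei (y axis, 0 to 100) that held SLC17A6 only, both, GAD1 or GAD2 only, or neither, for all neuron-like nuclei and each gene (x axis, with the number of positive nuclei), thinned to 10000 UMIs and summed over 7 libraries. NPY is 88.8% GAD only, while TAC1 is 60.2% SLC17A6 only.

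For PENK the higher level of 7 dpi was present in both kinds of neuron. In thinned SLC17A6-only nuclei PENK gave 38.0, 14.7 and 40.7 CPM in intact cord, from 42, 8 and 106 UMIs. After injury it gave 62.0, 29.9, 55.1 and 34.3 there, so the groups overlapped. In GAD-only nuclei it gave 32.3, 24.5 and 35.6 CPM in intact cord, from 57, 31 and 190 UMIs. After injury it gave 72.3, 42.5, 60.9 and 39.7 there, above every intact segment. The log2 ratio to intact lumbar cord excluded 0 at 7 dpi in SLC17A6-only nuclei (0.61, 0.13 to 1.07) and at 7 dpi (1.02, 0.70 to 1.34) and 30 dpi (0.78, 0.44 to 1.10) in GAD-only nuclei. The other times were within counting error, with 30 to 68 UMIs in SLC17A6-only nuclei and 48 to 121 in GAD-only ones.

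At least 1 of the 10 genes was found in 17.2% of neuron-like nuclei in thoracic cord, the lowest, and in 27.7% at 30 dpi, the highest, at 5000 UMIs. Of these nuclei 10.2 to 19.1% held 2 or more of the genes.

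Genes with the pattern most like each peptide gene were those with the largest smallest log2 ratio of CPM + 1 between positive and other nuclei over the libraries used. For PDYN they were RORB, SCG2 and LAMA4 over 4 libraries, and for PENK they were ATP8B4, PRLR and TAFA1 over 6. For TAC1 they were MYO5B, STK32A and TAFA1 over 7 libraries, with a smallest log2 ratio of 2.33 for MYO5B. For TAC3 they were FBXL7, TRPM3 and SOX5 over 4 libraries. For NMU they were FKBP5, SLC4A4 and DAB2 over 7 libraries, with a smallest log2 ratio of 2.74 for FKBP5. For SST they were NMUR2, the neuromedin U receptor, PREX2 and B3GAT2 over 7 libraries, with a smallest log2 ratio of 2.27 for NMUR2. NPY, NTS, TRH and NPVF had too few positive nuclei for this.

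The receptors and the machinery of peptide release were not called either. Of 26 listed receptor genes 25 were found and 12 tested, of 13 processing and vesicle genes 12 were tested, and of 20 other peptide genes 18 were found and 3 tested; 0 were called at any injured time. Of the listed genes under the mean of 5 CPM, 1 met the fold and range of the call: CARTPT, which codes for the CART peptides, was at 0.955, 0.582 and 0.715 CPM in intact cord and at 2.26, 3.38, 1.95 and 1.23 CPM after injury. At 14 dpi its log2 ratio of CPM + 1 was 1.35, from 202 UMIs against 65. The share of all genes under 5 CPM that met the same fold and range is not given here. The median log2 ratio of the processing genes was -0.19, -0.25, -0.12 and -0.24 over the 4 injured times, beside 0.04, -0.05, -0.02 and 0.05 over all genes tested. For the receptors it was -0.17, -0.02, 0.06 and -0.05. PCSK1N, an inhibitor of the convertase PCSK1, measured 59.9, 34.5 and 62.5 CPM in the uninjured segments. It measured 103, 69.9, 112 and 106 CPM in the injured ones, all above the intact range. PCSK2, SCG3 and CADPS of the same list lay below the intact range at all 4 injured times. PCSK2 measured 483, 515 and 454 CPM and then 315, 363, 374 and 376 CPM. Over all genes tested, 8.6% were above the intact range at all 4 times and 11.8% below it. TACR1, the substance P receptor, measured 105, 73.8 and 106 CPM and then 96.3, 86.7, 79.3 and 66.1 CPM, below the intact range at 6 mpi only. NMUR2 measured 17.1, 20.5 and 15.3 CPM and then 22.3, 19.0, 19.6 and 28.6 CPM, with 14 and 30 dpi inside the intact range. OPRM1, the mu opioid receptor, is one of those at which enkephalins act. It measured 64.4, 77.8 and 68.4 CPM and then 71.4, 82.8, 84.7 and 65.6 CPM, with 7 dpi and 6 mpi inside the intact range. The listed receptor gene that was not found was OPRD1, the delta opioid receptor. OPRL1 measured 6.05, 4.73 and 6.05 CPM and then 6.60, 5.45, 6.74 and 12.2 CPM, with 14 dpi inside the intact range. Its log2 ratio of CPM + 1 at 6 mpi, 0.90, was the farthest from 0 among the 12 receptors tested. CARTPT and the other genes whose levels are given here were picked for naming after their values were seen.

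**Figure D4:**
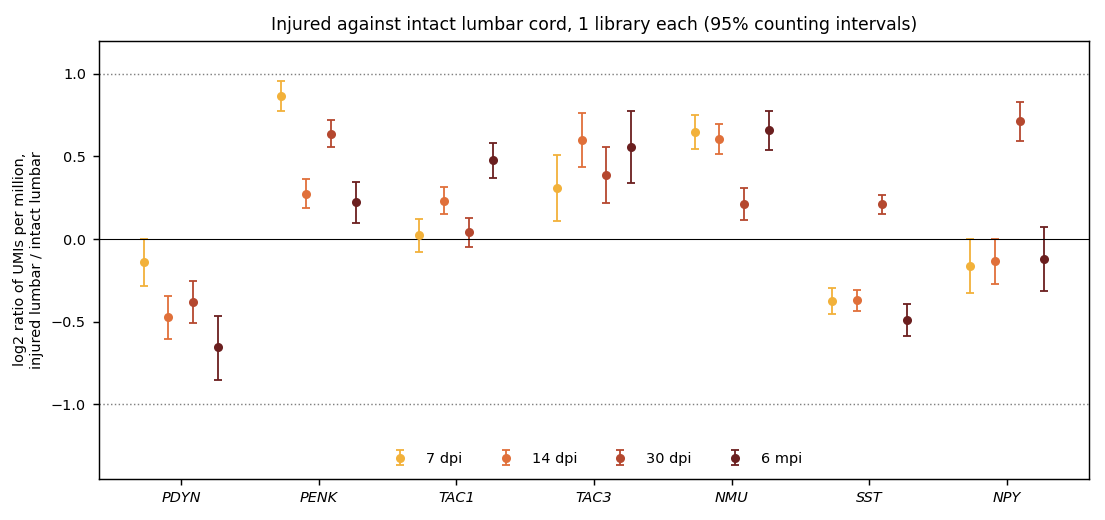
Log2 ratio of CPM in injured to intact lumbar cord (y axis) for the 7 genes with a mean of 5 CPM or more (x axis), by time, with 95% counting intervals; dotted lines mark 2-fold. PENK at 7 dpi, at 0.87, is the farthest from 0 and no point passes a dotted line.

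Peptide RNA of primary sensory neurons is made outside the cord, and their markers were uneven here. Of 10 such markers SCN9A was between 187 and 252 CPM and made up most of the sum, while MRGPRD was at 0 in all 7 libraries, SCN10A was between 0.0342 and 0.462 CPM and POU4F1 between 0 and 0.121 CPM; the summed list ranged from 222 to 264 CPM in intact and from 205 to 225 CPM in injured libraries. Glial markers in neuron-like nuclei summed to 397 to 519 CPM in intact and 299.6 to 484 CPM in injured libraries. The cholinergic markers summed to 30.6, 27.4 and 17.5 CPM in intact and 9.89, 11.2, 9.14 and 16.4 CPM in injured libraries. The part of these cell types in the peptide levels was not tested.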

How the data were processed

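Nuclei were isolated by dounce homogenisation and sequenced as 10x libraries. The authors aligned and counted reads with Cell Ranger 6.0.0 (named in the submitters' processing notes) on Mmul_10; the deposited values are raw UMI counts per gene and nucleus, and further steps of the authors are not used here. The matrices held 69332 barcodes with 777183139 UMIs. Nuclei with more than 500 genes and 1000 UMIs, under 10% mitochondrial and under 5% haemoglobin UMIs were kept, and in every library the top 5% by doublet score (simulated doublets among 50 neighbours) were removed, leaving 63730. Nuclei were clustered on 2000 variable genes without the peptide and transmitter genes (30 components, Leiden resolution 1; scanpy 1.11.5, Python 3.11.15) and named from marker lists; 7 of 37 clusters stayed unnamed. Median UMIs per neuron-like nucleus were 21405 to 38983.5, against 3506 to 8624.5 for oligodendrocyte-like ones.

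Pooled CPM carry exact Poisson intervals, ratios exact conditional binomial intervals and shares Clopper-Pearson intervals (95%, counting error only). No test between groups was run, as each group is 1 library. Named genes were the 10 peptide genes, transmitter genes, list genes called at 2 or more injured times and the 3 genes most like each peptide gene. Clusters' leading genes, marker genes and list genes named after their values were seen, or because they were not found, fall outside this rule. The peptide genes and all lists were chosen with earlier results of these data known. The call rule was tried on simulated counts with counting error only and no spread between libraries or animals. That cannot show how often the rule errs on real libraries, and its outcome is not given here. Alternatives covered the definition of neurons, doublets, depth, pooling, pseudocount, scaling, reference, fold and filter. Coding stretches are given for TAC1 and TAC3 only; those of the other genes are not reported here.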

Additional observations from a re-analysis of the deposited data

Results flagged for a closer look

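NTS UMIs were counted outside neurons in intact lumbar cord, where 20 UMIs in 324 ependymal-like nuclei gave 13.1 CPM (8.01 to 20.3), above the 4.11 CPM of neuron-like nuclei of that library. The UMIs lay in 12 nuclei, with at most 7 in 1 nucleus. These were 3.70% of ependymal-like nuclei, whose median depth was 4074 UMIs, against 0.115% of oligodendrocyte-like nuclei of that library with an NTS UMI, whose median depth was 5708.5 UMIs. All 12 also held the ciliary gene CFAP299 and 0 held SNAP25. CFAP299 is among the markers that named the ependymal-like nuclei and SNAP25 among those of neurons, so neither is independent of the naming. The CSF-contacting neuron markers PKD2L1 and GATA3 had 0 UMIs in these 324 nuclei. Elsewhere NTS had 0 UMIs in 67 ependymal-like nuclei of cervical cord, 2 in 113 of thoracic cord and 3 in 52 at 14 dpi; the other libraries had under 50 such nuclei.

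SST, NPY and NPVF moved in opposite directions at different injured times against intact lumbar cord, each beyond counting error; the difference between times was not tested, since each time is 1 library. SST had a log2 ratio of 0.21 at 30 dpi and -0.49 at 6 mpi. NPY had 0.71 at 30 dpi and -0.16 at 7 dpi; its 7 dpi level lay inside the intact range, and with clusters weighted as in intact lumbar cord the ratio of CPM + 1 was 0.15. NPVF had 0.50 at 6 mpi and -0.67 at 14 dpi; its 6 mpi level also lay inside the intact range, and weighted alike the 6 mpi ratio of CPM + 1 was 0.09. SST at 6 mpi lay inside the intact range too.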

How the results depend on the processing

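No paired analysis was possible because each group is 1 library and the labels give no replicate numbers shared between groups. With 1 animal per injured time, no alternative below stands in for replicates. Of 640 log2 ratios of peptide genes recomputed under the alternatives, 31 had the opposite sign. Among them were SST at 30 dpi (0.21, and -0.03 as a mean over nuclei) and NPY at 7 dpi (-0.15, and 0.15 with clusters weighted as in intact lumbar cord). NPVF in thoracic cord was another (0.48, and -0.03 so weighted). The weighted values leave out cluster 29, which held 38.3% of NPY UMIs.

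The counts of peptide genes past the call moved from 0 under these settings. With the mean over nuclei in place of pooled UMIs, 2 were lower in thoracic cord (TAC3 and SST) and 1 was lower at 6 mpi (PDYN), beside 0.344% and 0.636% of all genes. With the mean of the 3 intact libraries as the reference, 1 was higher at 7 dpi (PENK), beside 1.08%. At 1.5-fold, 1 was lower in thoracic cord (TAC3), 2 were higher at 7 dpi (PENK and NMU) and 2 at 30 dpi (PENK and NPY), and at 6 mpi 1 was higher (NMU) and 1 lower (PDYN), beside 1.23% of all genes lower in thoracic cord, 4.89% higher at 7 dpi, 2.15% at 30 dpi, and 7.39% higher and 2.82% lower at 6 mpi. With clusters weighted as in intact lumbar cord, chosen after seeing the data, 2 were lower in thoracic cord (TAC3 and SST), beside 0.178%. Median-of-ratios scaling, a pseudocount of 0.5 or 5, neurons named from each nucleus's own markers, nuclei of 5000 or more UMIs, totals without the 10 genes and the removal of the 1% of nuclei with most UMIs of a gene (the last pair chosen after seeing the data) gave 0 calls in every comparison, as did no doublet removal and a minimum mean of 1 CPM.

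At 5000 UMIs the interval of the share lay wholly above that of oligodendrocyte-like nuclei in all 7 libraries for 5 of the 10 genes, which fell to 1 at 1000 UMIs. Genes with more SLC17A6-only than GAD-only nuclei in every library with 20 or more positive nuclei numbered 3, counting genes with 3 or more such libraries, and 1 at 1000 UMIs and 5 with 1 UMI making a nucleus positive. Genes with the opposite lean, counted alike, numbered 1 (PDYN; NPY, with 2 such libraries, was not counted), and 0 at 1000 UMIs, 2 at 10000 UMIs, 3 with 1 UMI making a nucleus positive and 2 with no doublet removal. At 1000 UMIs too few positive nuclei remained in most libraries.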
